A study of Bos taurus with 18 samples.

Results

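The cytosolic ribosomal proteins are the protein parts of the cell's main ribosome, and 65 of their genes were read in the bovine preovulatory follicle. They were chosen by name from the platform's probe annotation. A gene was taken when its symbol began with RPL or RPS followed by a digit, or was RPSA, RPLP0 or RPLP2. Kinases of ribosomal protein S6 and genes named as "like" an existing one were left out. The array measured 9155 genes in all. A gene with several probe sets was read from the one with the highest mean signal. Of the 65 genes, 40 carry large-subunit names and 25 small-subunit names.

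The study asked whether the LH surge acts differently on granulosa and theca. Each of 6 cows gave 1 dominant follicle, and 3 populations of it, the granulosa attached to the follicle wall (membrane granulosa), the granulosa drawn off with the fluid (antral granulosa) and the theca, were put on separate Affymetrix expression arrays. Cows D, F and G gave follicles before the LH surge, and cows A, B and C gave theirs 22 h after GnRH, which was used to induce the surge. That makes 6 groups of 3 arrays, 1 per cow, and no other treatment or breed, age or genotype is given in the sources used here. The populations were separated by hand rather than sorted, so each holds a mixture of cells. In such bulk samples a smaller share of one cell type and less RNA per cell cannot be told apart. All values are log2 signals, and a difference of 1 is a doubling. Errors on group means are SD with n = 3 cows, and errors on differences are standard errors from limma. A gene was called at an adjusted p under 0.05 in limma, where p-values were adjusted over 24016 probe sets by the Benjamini-Hochberg method. The number of arrays limits the precision.

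A ribosome joins a small subunit, which reads the mRNA, to a large subunit, which makes the peptide bond and holds the exit tunnel. Its proteins are needed in nearly equal numbers, and their mRNAs share a pyrimidine-rich start, the TOP motif, through which growth signals acting by mTOR set their translation. Growing and secreting cells make many ribosomes. In the follicle the granulosa feeds the oocyte and makes oestradiol until the LH surge, while the theca is a vascular layer of steroid-making cells, fibroblasts, muscle and vessels. Several of these genes, RPLP0, RPL19, RPS9, RPS18 and RPS26 among them, are also in common use as reference genes for PCR.

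The genes were among the brightest on every array. Of the 65, 62 had a mean over 10 across the 18 arrays, and between 53 and 61 lay above the 99th percentile of their array. Between 0 and 7 lay within 0.5 of the array's brightest value, which was 14.6 to 14.9. A few exceptions stand apart. RPS19, a small-subunit protein needed for the maturation of that subunit, was read only dimly, with a mean of 4.85, and RPL37 had a mean of 3.91. The limit below which a probe set is called dim here, 4.62, was set so that the dimmest of 3 equal parts of all probe sets lies under it. RPS19BP1, with a mean of 9.06, meets the naming rule but encodes a binding partner of RPS19 rather than a ribosomal protein, and RPL15P is listed as a pseudogene. The symbol RPS4Y1 is kept as the annotation gives it. Another 14 genes that fit the rule, such as RPLP1, RPL15 and RPL23A, were not analysed here.

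Theca carried more ribosomal protein mRNA signal than membrane granulosa in the same follicles before the LH surge. Of the 65 genes, 53 were called higher in theca and 1 lower, where 34.3% of all probe sets were called and 15.4% were called higher. The median difference over the 65 was 0.45, or 1.366-fold, beside -0.07 over all probe sets. In 60 genes all 3 theca arrays lay above all 3 membrane granulosa arrays, which held for 17.9% of all probe sets. The tilt was present in each follicle. Cow D had 63 genes above 0 with a median of 0.47, cow F 63 with 0.31, and cow G 63 with 0.53. Both subunits took part, with 36 of 40 large-subunit genes and 17 of 25 small-subunit genes called higher. Leaving out cow G reduced the 54 calls to 29, and leaving out cow D reduced them to 36. Quantile normalization gave a median of 0.29 and 34 calls, and a fit on the compared arrays alone gave 31 calls.

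Signs of RNA state differed among the arrays of this contrast. The 3′ minus 5′ signal of the GAPDH control was 0.30 in the membrane granulosa of cow F, 0.67 in cow D and 0.86 in cow G, while the medians of the 65 genes on those arrays were 13.55, 13.41 and 13.24. After LH the GAPDH value of membrane granulosa was 0.54 in cow A, 0.65 in cow B and 0.34 in cow C. The medians on those arrays were 13.28, 13.42 and 13.40. Their 3′ minus 5′ values were 1.65, 1.60 and 1.51 for the cyclophilin control and 3.02, 3.41 and 2.77 for the EIF4E control. In theca the GAPDH value was 0.29 to 0.34 before LH, and it was 0.28 to 0.45 after. The cyclophilin value before LH was 1.43 to 1.51 in theca and 1.60 to 2.01 in membrane granulosa. After LH it was 1.40 to 1.59 in theca and 1.51 to 1.65 in membrane granulosa. The EIF4E value before LH was 2.84 to 3.09 in theca and 2.97 to 3.79 in membrane granulosa. After LH it was 2.53 to 3.19 in theca and 2.77 to 3.41 in membrane granulosa. Cow G's membrane granulosa also had the highest cyclophilin (2.01) and EIF4E (3.79) values of the 6 membrane granulosa arrays. The part of RNA state in the ribosomal protein values was not tested.

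**Figure D1:**
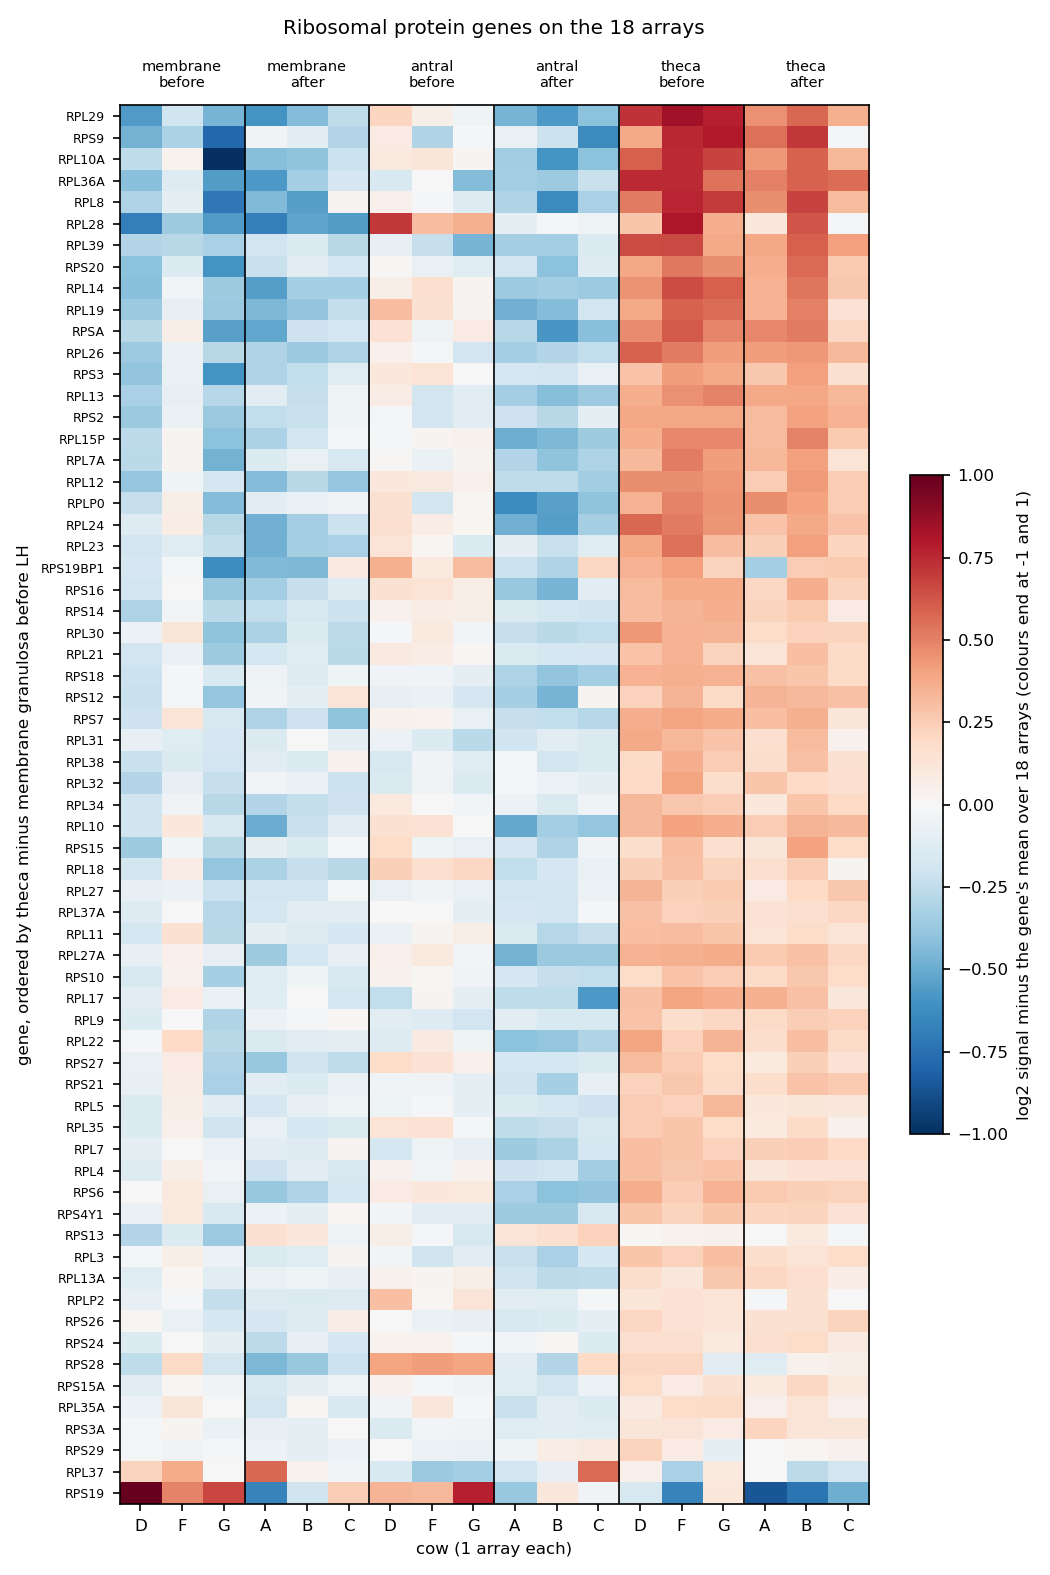
Log2 signal of the 65 genes (rows) on the 18 arrays (columns, 1 per cow), as the distance from each gene's mean. The 6 theca columns are red in nearly all rows, with RPS19 and RPL37 at the bottom going the other way, and the antral granulosa columns turn from near white before LH to blue after it.

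RPL29, a basic protein on the surface of the large subunit that also binds heparin, showed the largest difference. In theca before LH it read 13.53 in cow D, 13.65 in cow F and 13.59 in cow G. Membrane granulosa of the same cows read 12.24, 12.61 and 12.34. The groups did not come near each other, and the difference was 1.19 ± 0.13 (limma adjusted p = 2.91e-05), or 2.29-fold. RPS9, a small-subunit protein near the mRNA entry, read 12.81, 13.19 and 13.22 in theca against 11.96, 12.11 and 11.64 in membrane granulosa. Its difference of 1.17 ± 0.17 was similar in size, and cow G gave the widest gap.

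RPL36A, which sits where spent tRNA leaves the ribosome, read 13.14, 13.14 and 12.94 in theca and 11.98, 12.27 and 11.84 in membrane granulosa, a difference of 1.05 ± 0.11. RPL10A, which forms the mobile stalk next to that site, read 13.26, 13.42 and 13.34 against 12.42, 12.70 and 11.65, a difference of 1.08 ± 0.18. Cow G's membrane granulosa was the low one here. RPL8, close to the catalytic centre, differed by 1.03 ± 0.18, RPL28 by 1.02 ± 0.17 and RPL39, which lines the exit tunnel, by 0.86 ± 0.11.

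RPSA, a small-subunit protein first described as a laminin receptor precursor, was higher in theca by 0.78 ± 0.16. Its theca values ran from 13.71 to 13.85 and its membrane granulosa values from 12.70 to 13.30. RPS3, at the mRNA entry channel, was higher by 0.72 ± 0.12, and RPLP0, the base of the stalk that recruits elongation factors, by 0.63 ± 0.14. RPL11 and RPL5, which together carry the smallest ribosomal RNA into the large subunit and can bind MDM2, were higher by 0.39 ± 0.11 and 0.34 ± 0.10. RPL22, RPS27, RPS6 and RPL3 were higher by 0.28 to 0.35. For RPL3 the adjusted p of 0.0498 stood at the threshold, and with the mean of its probe sets the difference turned to -0.10, not called. RPLP2, a partner of RPLP0 in the stalk, was not called (0.25 ± 0.11, adjusted p = 0.104).

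Genes in use as references for PCR were among those called. RPS9 differed between theca and membrane granulosa by 1.17, RPL19 by 0.79 ± 0.14 and RPS18 by 0.48 ± 0.10, all called. RPL13A (0.26 ± 0.10), RPS26 (0.24 ± 0.10) and RPS15A (0.18 ± 0.10) were not called, with adjusted p from limma between 0.0621 and 0.187. RPS26 read 14.36, 14.29 and 14.28 in theca and 14.16, 14.08 and 13.97 in membrane granulosa, so its groups did not overlap either. The 3 uncalled genes had brighter probe sets (means of 13.92 to 14.15) than RPS9 (12.43) or RPL19 (12.56), and whether their differences are unequal was not tested. The 95% interval of the RPS26 difference ran from 0.03 to 0.45. The uncalled genes also included RPS29, RPS28, RPS24, RPS3A, RPL35A and RPS13, with differences from 0.09 to 0.29.

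**Figure D2:**
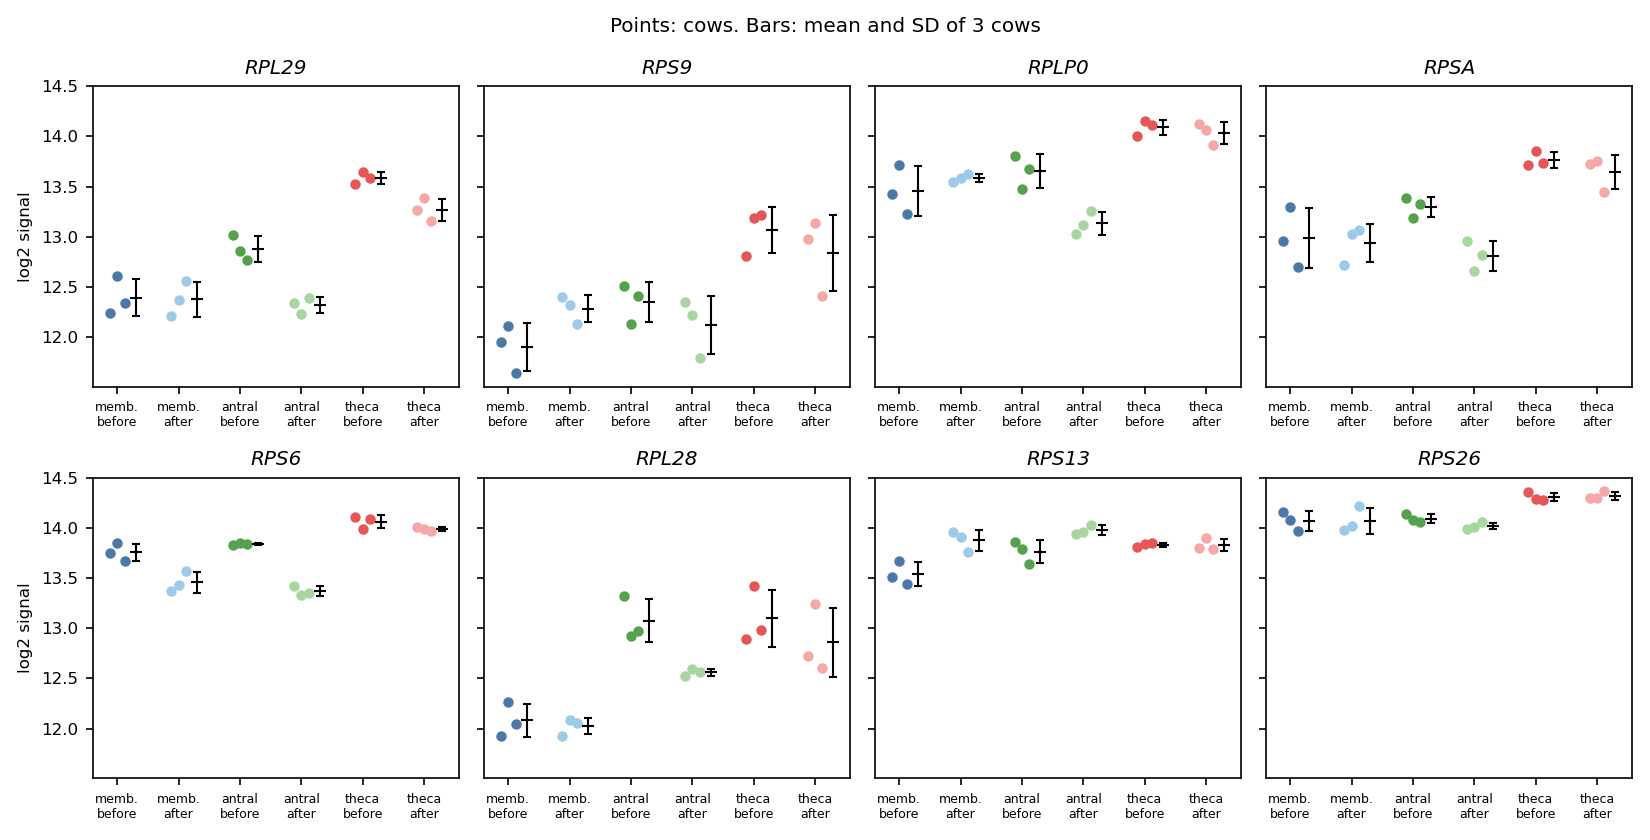
Log2 signal of 8 genes in the 6 groups, with a point per cow and the mean and SD of 3 cows beside the points. RPL29, RPS9, RPLP0 and RPSA lie highest in theca both before and after LH, RPS6 drops after LH in both granulosa populations, RPL28 is lowest in membrane granulosa, and RPS13 and RPS26 span a narrow range.

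After the LH surge the same contrast was found in other cows. There 42 of the 65 genes were called higher in theca and 0 lower, with 25.8% of all probe sets called and 11.4% called higher. The median difference was 0.35 over the 65 genes and -0.02 over all probe sets. Theca arrays lay wholly above membrane granulosa arrays in 61 genes, against 15.6% of all probe sets. Cow A had 62 genes above 0, cow B 62 and cow C 63, with medians of 0.40, 0.42 and 0.29. The count of calls was 11 without cow A, 11 without cow B, 32 without cow C, 26 after quantile normalization and 22 with the compared arrays alone. RPL36A had the largest difference, 0.91 ± 0.11, with theca at 12.90, 12.99 and 12.96 and membrane granulosa at 11.83, 12.06 and 12.23. RPL29 (0.89 ± 0.13), RPL28 (0.83 ± 0.17), RPL8 (0.81 ± 0.18) and RPL10A (0.80 ± 0.18) followed. RPS9 was higher by 0.56 ± 0.17, and cow C's theca, at 12.41, was well below cow A's 12.98 and cow B's 13.13.

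The 2 sets of cows gave largely overlapping lists. Higher calls were shared by 41 genes, which is 77.4% of the calls before LH and 97.6% of those after. The 12 called only before were RPL3, RPL5, RPL9, RPL11, RPL22, RPL31, RPL35, RPL38, RPS12, RPS15, RPS4Y1 and RPS19BP1, and RPS24 was called only after. In 53 genes all 6 theca arrays lay above all 6 membrane granulosa arrays, against 5.77% of all probe sets. In 47 genes they also lay above the 6 antral granulosa arrays, against 4.3% of all probe sets. On the brightest probe sets, a change of the theca difference with LH was not found for any of these genes. The difference in LH effect between theca and membrane granulosa was called for 0 of 65 by limma, with 9.13% of all probe sets called. At an unadjusted p under 0.05 there were 2 (RPS9 and RPS13), beside 22.0% of all probe sets. With the mean of a gene's probe sets RPL24 was called for that difference, at -0.85 (limma adjusted p = 0.00478).

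**Figure D3:**
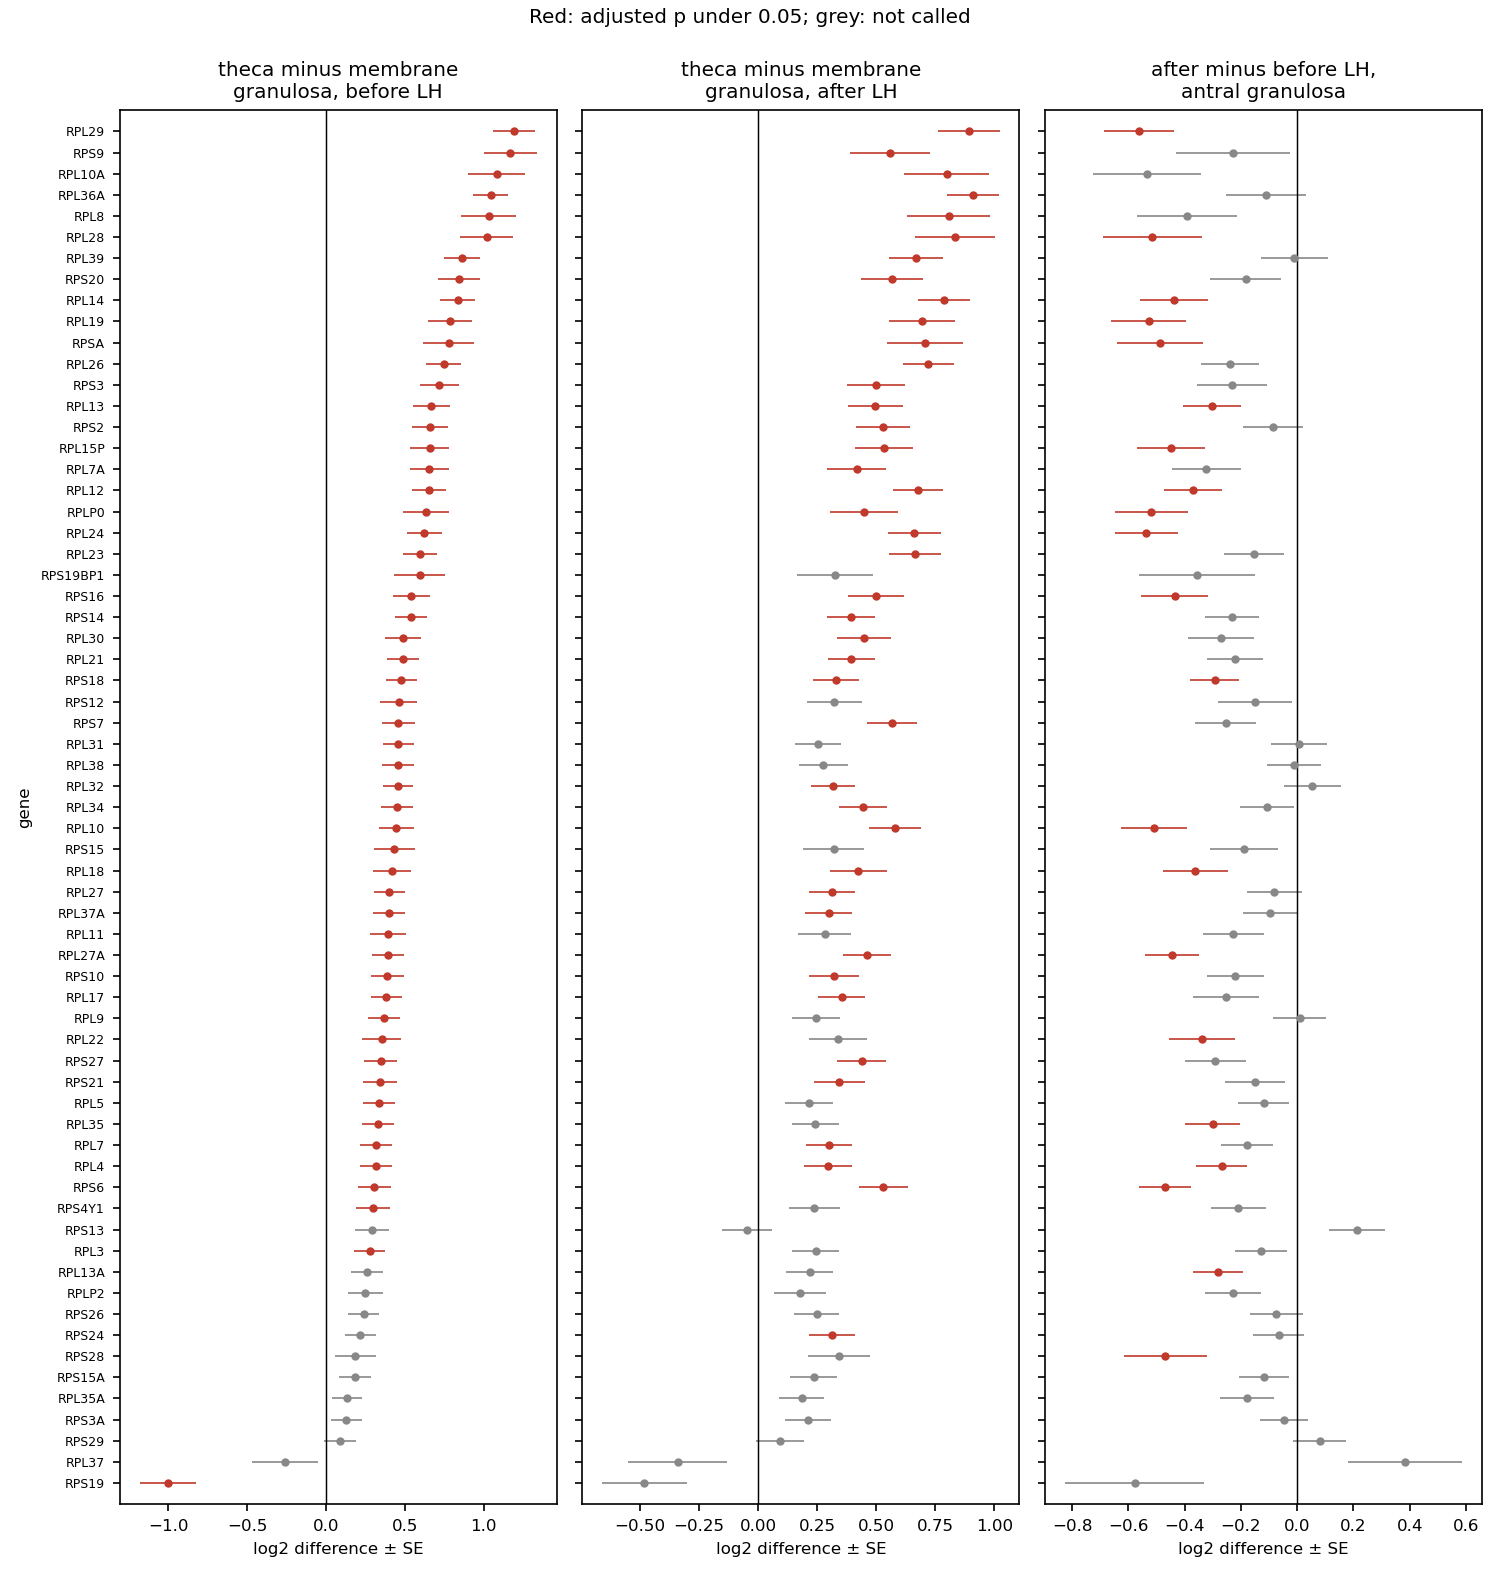
Difference in log2 signal ± standard error for each gene, ordered by the first panel. The first 2 panels compare theca with membrane granulosa before and after LH and the third compares antral granulosa after with before LH. Called genes are red. Nearly all points lie right of 0 in the first 2 panels and left of 0 in the third, where 21 are called.

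Theca was also higher than antral granulosa. Before LH it exceeded it in 35 genes and was lower in 1, with 37.1% of all probe sets called and 14.9% called higher, in a comparison added after the data were seen. RPL36A (0.88 ± 0.11) and RPL39 (0.82 ± 0.11) differed most there. After LH, theca was higher than antral granulosa in 53 genes and lower in 1, with 36.3% of all probe sets called and 15.7% called higher. RPL29 (0.95 ± 0.13), RPL8 (0.91 ± 0.18), RPL10A (0.90 ± 0.18) and RPLP0 (0.90 ± 0.14) led. RPS19 was the gene lower in theca, by 0.72 ± 0.18 before LH, and by 1.00 ± 0.18 against membrane granulosa before LH. After LH its theca values, 3.99, 4.12 and 4.36, were all below the dim limit of 4.62, so no size is given. Its theca values before LH, 4.69, 4.18 and 4.95, lay around the level of the dimmest probe sets, and those of membrane granulosa were 5.97, 5.34 and 5.51.

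The theca arrays also carried signal of other cell types. Before LH 6 of 6 fibroblast markers, 5 of 5 smooth muscle markers, 5 of 6 endothelial markers and 2 of 8 leukocyte markers were called higher in theca than in membrane granulosa. The fibroblast markers averaged 11.7 to 12.3 per theca array, 8.16 to 9.76 per membrane granulosa array and 5.42 to 5.90 per antral granulosa array. The endothelial markers averaged 6.81 to 7.46 in theca and 4.48 to 5.12 in membrane granulosa, and the group means of VWF and KDR were below 4.62 in both. Granulosa markers ran the other way, at 8.46 to 9.57 in theca and 11.1 to 11.3 in membrane granulosa. After LH the fibroblast markers averaged 12.2 to 12.6 in theca, 9.51 to 11.1 in membrane granulosa and 6.53 to 8.58 in antral granulosa. Their part in the ribosomal protein differences was not tested.

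Antral granulosa lost ribosomal protein mRNA signal across the LH surge. Of the 65 genes, 21 fell and 0 rose, where 22.4% of all probe sets were called, 12.2% lower and 10.3% higher. The median change was -0.23 over the 65 genes and -0.01 over all probe sets, and 59 of 65 changes were below 0. Antral arrays after LH lay wholly below those before LH in 43 genes, against 19.4% of all probe sets. The fallen genes were 16 large-subunit and 5 small-subunit genes. The count rested on few cows: it was 6 without cow A, 8 without cow D, 9 without cow B, 12 without cow C, 12 without cow G and 15 without cow F. It was 12 after quantile normalization, with a median of -0.12, 11 with arrays centred on their bright probe sets, with a median of -0.17, and 12 with the compared arrays alone.

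RPL29 had the largest change among the called genes, from 13.02, 12.86 and 12.77 in cows D, F and G to 12.34, 12.23 and 12.39 in cows A, B and C. The change was -0.56 ± 0.12 (limma adjusted p = 0.00354). RPLP0 read 13.81, 13.47 and 13.68 before and 13.03, 13.12 and 13.26 after, a change of -0.52 ± 0.13. Neither gene's groups overlapped, and RPL29 kept its call in every alternative run, with changes between -0.62 and -0.49. RPS6, the substrate of the S6 kinases, was also called. It read 13.83, 13.85 and 13.85 before and 13.43, 13.33 and 13.35 after, a change of -0.47 ± 0.09 (adjusted p = 0.00136) that kept its call in every alternative run.

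RPL19, which reaches across the face where the subunits meet, fell by 0.53 ± 0.13. The brightest probe set of RPL24, a neighbour at that face, changed by -0.54 ± 0.11, while its second probe set rose by 2.46 ± 0.29, so no direction is given for the gene. RPL28, a large-subunit protein without a counterpart in budding yeast, fell by 0.51 ± 0.18. RPSA fell by 0.49 ± 0.15, RPL22 by 0.34 ± 0.12, RPS18 by 0.29 ± 0.09 and RPL13A by 0.28 ± 0.09. RPL36A (-0.11 ± 0.14) and RPL39 (-0.01 ± 0.12), which were among the widest theca differences, were not called. RPL5 (-0.12 ± 0.09), RPL11 (-0.23 ± 0.11), RPL3 (-0.13 ± 0.09), RPS3 (-0.23 ± 0.13) and RPS27 (-0.29 ± 0.11) were not called either. The interval of RPL39 ran from -0.27 to 0.25.

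Ratios of transcript ends, a measure of RNA state, differed between these groups in mixed directions. The 3′ minus 5′ signal of the GAPDH control probe sets was 0.12 to 0.47 in antral granulosa before LH and 0.46 to 0.87 after. That of cyclophilin was 1.47 to 1.61 before and 1.74 to 2.04 after, and that of EIF4E went the other way in its means, 3.40 before and 3.26 after, with overlapping arrays. In membrane granulosa the GAPDH value was 0.30 to 0.86 before and 0.34 to 0.65 after. The brightest value per array also ran lower after LH, 14.6 to 14.7 against 14.8 to 14.9 in antral granulosa, and likewise in theca. In membrane granulosa it had a mean of 14.79 before and 14.64 after, where the median of the 65 genes changed by -0.02. The granulosa markers averaged 11.03 to 11.30 per antral array before LH and 7.96 to 8.54 after, and in membrane granulosa they dropped to 7.86 to 8.83. The drop was uneven in antral group means: CYP19A1 went from 12.72 to 4.09 and INHBA from 14.61 to 9.73. INHA went only from 14.46 to 14.24 and NR5A2 from 10.73 to 9.95, so the average was not read as a share of granulosa cells. The fibroblast markers were higher after LH, as given above. The part of these in the ribosomal protein values was not tested.

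Membrane granulosa changed in 3 genes of the 65 across LH, with 21.0% of all probe sets called. The arrays did not overlap in 4 genes higher after LH, against 14.9% of all probe sets, and in 6 lower, against 19.7%. RPS13 rose, and RPS6 and RPS19 fell. The median change was -0.02 over the 65 genes and -0.05 over all probe sets. RPS13, a small-subunit protein, read 13.51, 13.67 and 13.44 before LH and 13.96, 13.91 and 13.76 after, a rise of 0.34 ± 0.10 (limma adjusted p = 0.0248). RPS6 read 13.75, 13.85 and 13.67 before and 13.37, 13.44 and 13.57 after, a fall of 0.30 ± 0.09 (adjusted p = 0.0292). The groups of each gene did not overlap, by a narrow margin. RPS19, dim as above, changed by -0.97 ± 0.25. The count was 0 without cow D, 0 without cow A, 1 without cow G and 1 without cow B, and 0 when only these arrays were fitted.

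In theca 0 of 65 genes were called across LH by limma, with 3.92% of all probe sets called. At an unadjusted p under 0.05 there was 1, beside 15.4% of all probe sets. That gene was RPL29, at 13.53, 13.65 and 13.59 before and 13.27, 13.38 and 13.16 after, a difference of -0.32 ± 0.12 with an interval from -0.58 to -0.05 (adjusted p = 0.213). The median over the 65 genes was -0.09, and 58 were below 0. In 15 genes the arrays after LH lay wholly below those before, against 10.4% of all probe sets. RPS6 differed by -0.08 ± 0.09 in theca, with an interval from -0.27 to 0.12. RPLP0 differed by -0.06 ± 0.13, and RPS13 by 0.00 at 2 decimals with an error of 0.10.

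The falls in antral granulosa were not shown to differ from the changes in membrane granulosa. The difference in LH effect, antral less membrane, was called for 0 of 65 genes by limma, and 0% of all probe sets were called. At an unadjusted p under 0.05 there were 10, beside 9.31% of all probe sets. All 10 lay below 0, and so did 60 of the 65, with a median of -0.20. RPLP0 had the largest, -0.65 ± 0.20, with an interval from -1.09 to -0.21 (adjusted p = 0.433). Its membrane granulosa values were 13.43, 13.72 and 13.22 before LH and 13.54, 13.59 and 13.62 after, a change of 0.13 ± 0.13. RPS9 (-0.61 ± 0.24), RPL10A (-0.60 ± 0.26) and RPL29 (-0.55 ± 0.19) came next. For RPS6, which fell in both granulosa populations, the difference was -0.17 ± 0.15.

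RPL28 was the 1 gene called between the granulosa populations. Before LH it read 13.33, 12.93 and 12.98 in antral granulosa and 11.93, 12.26 and 12.05 in membrane granulosa of the same cows. The difference of 0.99 ± 0.17 was the single call of the 65 (limma adjusted p = 0.0175), where 1.77% of all probe sets were called and 0.687% were called higher. Antral granulosa was then level with theca, at 12.89, 13.42 and 12.98. After LH it was 12.52, 12.59 and 12.57 in antral and 11.93, 12.09 and 12.06 in membrane granulosa. That difference of 0.53 ± 0.17 was not called (adjusted p = 0.0963), although the groups stayed apart. The call before LH was lost without cow D and without cow G. After LH 0 of 65 genes were called between the granulosa populations, with 3.00% of all probe sets called. At an unadjusted p under 0.05 there were 6, beside 22.9% of all probe sets.

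The genes moved largely as a block across arrays. Over the 62 genes with means above 10, the median correlation between pairs was 0.84 across the 18 arrays, and 0.46 once the group means were removed. These arrays share cows and scaling, so the values describe the data only. RPL29 (median correlation 0.91 with the others), RPL14 (0.91), RPL15P (0.90) and RPL24 (0.90) followed the block most closely. RPS13 stood outside it at 0.09. RPS29 was at 0.30 and RPS28 at 0.41, and both were singled out after their values were seen. RPS29 barely varied, with group means from 14.12 to 14.25. RPS28 was highest in antral granulosa before LH, at 11.42, 11.45 and 11.42, and fell there to 10.93, 10.74 and 11.23, a change of -0.47 ± 0.15. The within-group SD of the 62 genes ran from 0.05 to 0.26 with a median of 0.10.

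Brighter probe sets showed smaller differences. Among the 62 genes, the dimmest 20 had a median theca difference before LH of 0.72, the middle 21 of 0.46 and the brightest 21 of 0.32. The correlation of the difference with mean signal was -0.53 (Spearman -0.64) over these 62 genes. For the antral change after LH the medians were -0.35, -0.23 and -0.19. Signal depends on the probes as well as on the mRNA, so the order of the genes by difference is not an order of their mRNA change. The part of bright signal in these sizes was not tested.

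**Figure D4:**
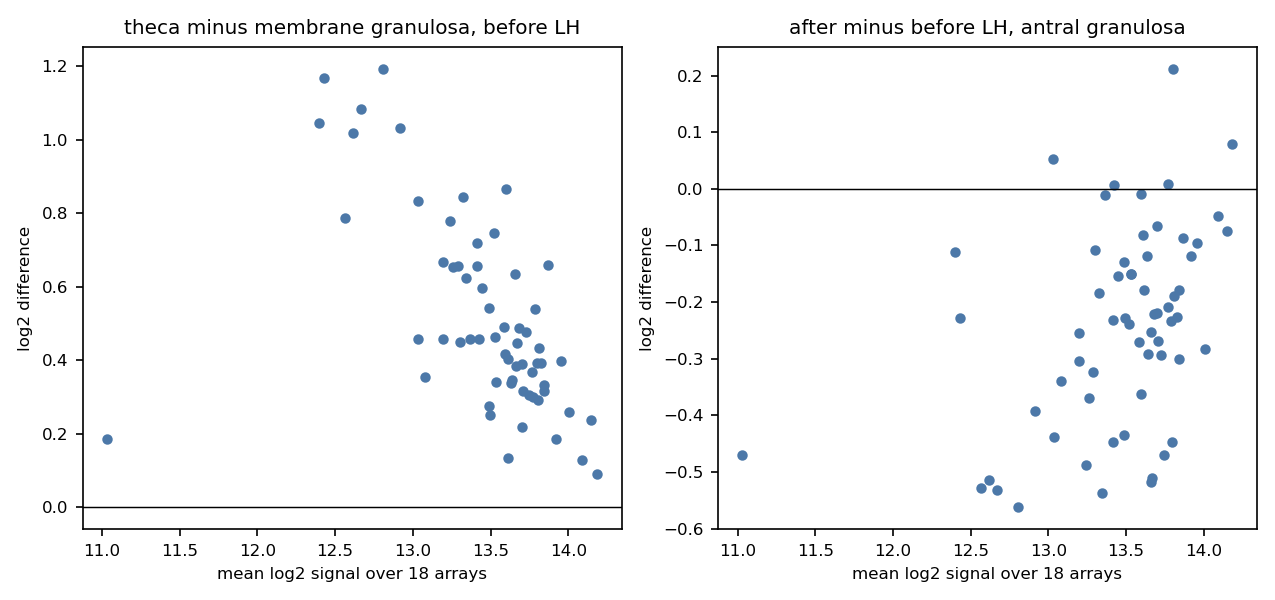
Log2 difference of each of the 62 genes with mean signal above 10 against that mean, for theca minus membrane granulosa before LH and for antral granulosa after minus before LH. Differences shrink towards the bright end in both panels, from a median of 0.72 to 0.32 in the first.

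Other probe sets for the same genes were called in both directions. Of 26 further probe sets, for 17 genes, 14 were called higher and 3 lower in theca before LH, and after LH 11 were higher and 1 lower, beside 15.4% and 11.4% of all probe sets called higher. In antral granulosa across LH 6 fell and 2 rose, beside 12.2% and 10.3% of all probe sets. The second probe set of RPL10 fell by 0.82 ± 0.17 in antral granulosa, further than the first (-0.51). One of RPS12 was higher in theca by 3.60 ± 0.43 and one of RPS4Y1 by 2.23 ± 0.17, far beyond 0.46 and 0.30 on their brightest probe sets. The 3 called lower before LH were probe sets of RPL7 (-1.08 ± 0.17), RPS7 (-0.87 ± 0.16) and RPL15P (-0.80 ± 0.19). That of RPL7 was also called lower after LH (-0.74 ± 0.17). These were chosen for mention after their values were seen.

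Ribosome parts outside the naming rule were measured for 2 of 3 listed genes, and both followed the block. RACK1, the scaffold that docks kinases on the small subunit, read 14.22, 14.24 and 14.20 in theca and 13.60, 13.74 and 13.36 in membrane granulosa before LH. Its difference was 0.65 ± 0.11, and in antral granulosa it fell by 0.52 ± 0.11 across LH. FAU, which encodes a small-subunit protein fused to a ubiquitin-like one, was higher in theca by 0.39 ± 0.11 and fell in antral granulosa by 0.42 ± 0.11.

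Of 9 listed paralogues 4 were measured apart from RPS4Y1, which is counted among the 65 genes. Of these 4, 2 fell across LH in both granulosa populations. Of all probe sets, 10.9% were called lower in membrane granulosa and 12.2% in antral granulosa. RPS27L, a second form of RPS27, read 12.33, 12.14 and 12.09 in antral granulosa before LH and 10.90, 10.85 and 11.27 after, a fall of 1.18 ± 0.14 (limma adjusted p = 1.68e-05). In membrane granulosa it fell by 0.71 ± 0.14, from 11.77, 11.90 and 11.69 to 10.85, 11.03 and 11.35. In theca it differed by -0.15 ± 0.14. The change in theca less that in membrane granulosa was 0.56 ± 0.16 (adjusted p = 0.044), and for RPS27 itself it was 0.09 ± 0.15, not called. RPL26L1 fell in antral granulosa by 0.70 ± 0.12, in membrane granulosa by 0.38 ± 0.12 and in theca by 0.50 ± 0.12. RPL7L1 was higher in theca before LH by 0.40 ± 0.13, and RPL3L, with a mean of 3.67, was dim.

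The elongation factors and other listed genes whose transcripts carry the TOP motif went with the ribosomal proteins. Of 13 measured, 10 were higher in theca and 0 lower both before and after LH, with medians of 0.77 and 0.64, beside 15.4% and 11.4% of all probe sets called higher. In antral granulosa 8 fell and 0 rose across LH, with a median of -0.44, beside 12.2% of all probe sets called lower, and without cow B the count was 5. EIF4B, which helps unwind mRNA, was higher in theca by 1.24 ± 0.11 before LH. EIF3H was higher by 0.95 ± 0.11 and BTF3, a chaperone of new chains, by 0.83 ± 0.13. EEF1B2, an exchange factor for elongation, fell in antral granulosa by 0.65 ± 0.13. EEF1A1, TPT1 and PABPC1 were called in neither contrast, with theca differences of 0.18 to 0.23 before LH.

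The other initiation factors were more mixed. Of 26, 11 were higher and 3 lower in theca before LH and 5 were higher after, where 34.3% and 25.8% of all probe sets were called. The total of 14 before LH was 8 without cow G, and that of 5 after LH was 0 without cow A and 0 without cow B. EIF3M (0.77 ± 0.12), EIF2B3 (1.03 ± 0.17) and EIF3G (0.88 ± 0.14) were higher in theca before LH. In membrane granulosa 5 rose and 2 fell across LH, where 21.0% of all probe sets were called. EIF4A1, the helicase of the cap-binding complex, rose by 0.81 ± 0.14 and EIF1, which helps select the start codon, by 0.69 ± 0.18, while EIF2B4 fell by 0.87 ± 0.19. Without cow A the count in membrane granulosa was 2, without cow D 3, without cow G 3 and without cow B 4. EIF2S1, a subunit of the factor that delivers the first tRNA, fell in antral granulosa by 1.20 ± 0.23.

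Ribosome biogenesis factors were called in both directions. Of 50 measured, 8 were higher and 5 lower in theca before LH, with a median of 0.05, and 7 were higher and 3 lower after, beside 34.3% and 25.8% of all probe sets called. Without cow G the count before LH was 6, and after LH it was 4 without cow A and 1 without cow B. POLR1D, a subunit of the polymerases that make ribosomal RNA, was higher before LH by 1.19 ± 0.13 and NOP16 by 0.82 ± 0.12. In antral granulosa 6 fell and 1 rose across LH, with a median of -0.21, beside 22.4% of all probe sets called. MPHOSPH10 fell there by 1.67 ± 0.29, LYAR by 1.28 ± 0.29 and FBL, the methyltransferase of the nucleolus, by 1.07 ± 0.24. That count of 7 was 14 without cow C, 3 without cow A, 3 without cow B, 3 without cow G, 4 without cow D and 4 without cow F.

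Mitochondrial ribosomal proteins serve the separate ribosome of that organelle. Their list held the 67 genes with such symbols on the array, so genes absent from the array were not counted. In theca before LH 18 were higher and 1 lower, with a median of 0.23, and after LH 7 were higher and 3 lower with 0.05, beside 34.3% and 25.8% of all probe sets called. Their total before LH fell from 19 to 11 without cow D and to 11 without cow G. After LH the total of 10 fell to 2 without cow A and to 2 without cow B. In antral granulosa 25 fell and 1 rose across LH, a median of -0.48 beside 12.2% of all probe sets called lower, and without cow A the total of 26 was 16. MRPS6 fell in all 3 populations, by 1.57 ± 0.20 in membrane granulosa, 1.49 ± 0.20 in antral granulosa and 0.92 ± 0.20 in theca. It was also the one lower in theca before LH, by 1.57 ± 0.17. MRPL52 was higher in theca by 0.77 ± 0.12 and fell in antral granulosa by 0.88 ± 0.12.

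**Figure D5:**
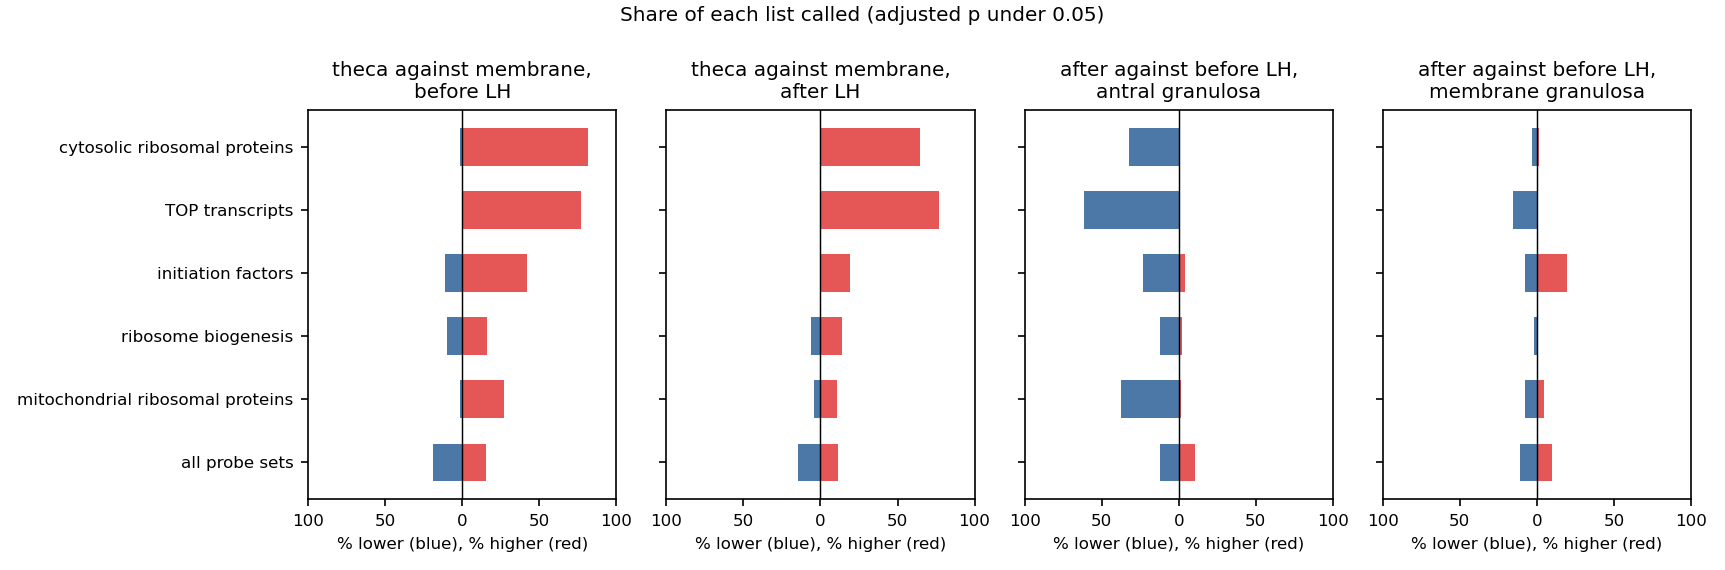
Share of 5 gene lists called higher (red, right of 0) or lower (blue, left of 0) in 4 comparisons, with all probe sets in the bottom row. The 65 ribosomal protein genes and the TOP transcripts reach furthest right in theca, with 53 of 65 and 10 of 13 called before LH, and of the lists shown TOP transcripts (8 of 13) and mitochondrial ribosomal proteins (25 of 67) reach furthest left in antral granulosa.

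Of 17 regulators of growth measured, 3 were higher and 4 lower before LH in theca and 1 higher and 7 lower after, beside 34.3% and 25.8% of all probe sets called. The total of 8 after LH was 1 without cow A and 1 without cow B. DDIT4 and TSC1, both restraints on mTOR, were lower in theca before LH by 2.16 ± 0.26 and 1.84 ± 0.21. EIF4EBP1, a repressor of the cap-binding factor, was lower by 1.22 ± 0.22. These 3 are named because their adjusted p was the smallest of the list, and the 3 genes called higher are not named here. The part of these regulators in the ribosomal protein differences was not tested. In antral granulosa DDIT4 fell across LH, with a change of -1.96 ± 0.24. RPS6KA3, a kinase activated by ERK, rose by 1.00 ± 0.27 there and by 1.30 ± 0.27 in membrane granulosa. RPS6KB2, an S6 kinase, rose in membrane granulosa by 0.60 ± 0.17.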

How the data were processed

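Trizol was used for the RNA and an IVT kit for labelling, per the labels' protocols. The submitters' processing notes name RMA and Partek 6.5; other settings are not given in the sources used here. What the authors deposited is a log2 signal for each probe set, from 2.29 to 14.9. No arrays held identical values. Control probe sets (112) were left out and 24016 tested. Of these, 13292 carry 1 symbol, 86 several and 10638 none in the platform annotation, which can be old. All 65 gene IDs matched the RefSeq table.

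For LH effects, limma 3.58.1 (R 4.3.3) fitted 6 group means without a block, since they compare different cows. Contrasts within follicles and differences in LH effect had the cow as a fixed block. Arrays of a cow come from the same follicle, and 17 of 18 such pairs had residual correlations over 0.1. The fit was tested on simulated data.

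The 65 genes and the lists were chosen with earlier results of these data known. Named genes are the 5 largest called changes each way per comparison, 18 genes fixed by function or use as references, of which RPLP1 and RPL15 were not analysed here, and up to 3 per list with the smallest adjusted p. Further names were chosen after their values were seen. Alternatives were quantile normalization, centring on array medians or on bright probe sets, dropping dim probe sets, the mean of a gene's probe sets, eBayes with trend and robust, a fit on the compared arrays alone, the block changed, and leaving out cows one at a time.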

Additional observations from a re-analysis of the deposited data

Results flagged for a closer look

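2 genes of the accompanying lists changed differently across LH in theca and in membrane granulosa. Of all probe sets, 9.13% were called for that difference. RPS27L was the 1 called of 4 paralogues and DDIT4 the 1 called of 17 growth regulators. Calls were 0 among 2 ribosome parts outside the rule, 13 TOP transcripts, 26 initiation factors, 50 biogenesis factors and 67 mitochondrial ribosomal proteins. For RPS27L the change in theca less that in membrane granulosa was 0.56 ± 0.16 (limma adjusted p = 0.044), from changes of -0.15 and -0.71. For DDIT4 it was 1.35 ± 0.37 (limma adjusted p = 0.0388), with a rise of 0.93 ± 0.24 in theca and a change of -0.42 ± 0.24 in membrane granulosa that was not called. Theca read 10.02, 9.82 and 9.13 for DDIT4 before LH and 10.69, 10.12 and 10.95 after.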

How the results depend on the processing

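Counts of calls moved with the settings. In theca before LH the 54 calls were 34 after quantile normalization, 31 with only the arrays compared and 29 to 51 with a cow left out. After LH the 42 were 26, 22 and 11 to 40. Across LH in antral granulosa the 21 were 12, 12 and 6 to 15, and 11 with bright centring. In membrane granulosa the 3 were 6 with the mean of a gene's probe sets, 0 with only the arrays compared and 0 to 3 with a cow left out. Between the granulosa populations before LH the 1 call was 2 with that mean, 3 with trend and robust, 0 with only the arrays compared and 0 to 1 with a cow left out. After LH that mean gave 1 call, and for the LH effect of theca less membrane 2.

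With that mean RPL24 turned, to 0.67 across LH in membrane granulosa, 0.96 in antral granulosa and -0.85 for theca less membrane, and RPL3 turned to -0.10 in theca before LH. Its construction, which adds the second probe set, gives the cause. Of 3150 values of 25 genes, 2968 kept direction and call, 134 lost the call, 44 gained it and 4 turned. Of 126 medians, 9 moved beyond the spread between cows. The median theca difference ran from 0.29 (quantile) to 0.52 (without cow F) before LH, and the antral change from -0.12 (quantile) to -0.26 (without cow C). Bright centring moved the median of all probe sets between granulosa populations after LH from 0.05 to 0.16, and that of the 65 genes from -0.07 to 0.04, so no direction is given there.

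A replicate number stands for one cow before LH and another after it, and 2 of 9 such pairs had residual correlations over 0.1. With the replicate block the antral count was 18. Without the cow as a block, theca counts were 56 before LH and 41 after. Without RPS19BP1, RPS19 and RPL37, an alternative chosen after seeing the data, they were 52 and 42.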
